A study of Gallus gallus with 6 samples.

Results

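The 10 genes described here belong to the endothelial and VEGF (vascular endothelial growth factor) pathway and were examined in cultured chicken primordial germ cells (PGCs) that had turned into adherent somatic cells: VEGFA, VEGFC, VEGFD, FLT1, KDR, FLT4, TEK, LMO2, TAL1 and FLI1. They were chosen by gene symbol. All 10 symbols had exactly 1 row in the table of 23873 genes. The comparison was between 3 libraries of somatic differentiated PGCs, which had attached and were kept by drawing off the floating cells and growing the remainder for some further weeks, and 3 libraries of undifferentiated PGCs, which grow in suspension. All cells were isolated from embryonic blood at stage 16 of the Hamburger and Hamilton series, or slightly later, and were grown in medium with chicken serum, heparin, human FGF2, the ROCK inhibitor H1152 and the myosin inhibitor Blebbistatin. The labels give neither the number of PGC lines nor whether libraries with the same number came from 1 line. The p-values below set the difference between the groups against the spread of these libraries within the groups.

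VEGFs are secreted dimers that bind receptor tyrosine kinases. KDR (VEGFR2) carries most of the growth and survival signal of VEGFA in endothelial cells, FLT1 (VEGFR1) binds VEGFA tightly but signals weakly and can act as a decoy, and FLT4 (VEGFR3) answers to VEGFC and VEGFD in lymphatic endothelium. TEK is the receptor of the angiopoietins. LMO2, TAL1 and FLI1 are transcription regulators of the common precursors of blood and endothelium, best known from mouse and human.

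Values are TPM, transcript abundances corrected for transcript length and for the library total. TPM holds no read number. Sequencing depth is therefore unknown here, and counting error cannot be stated. The table does not tell fewer expressing cells from less RNA per cell. A gene was tested when its mean was at least 1 TPM over the 6 libraries, which 12996 genes met. The test was limma on log2(TPM + 1), and a gene was called when its p, adjusted by Benjamini-Hochberg across the 12996 genes, was under 0.05 and its log2 change (somatic differentiated minus undifferentiated) was at least 1 in size. Of all genes tested, 13.2% were called higher and 7.77% lower in somatic differentiated PGCs. The median log2 change of all genes was -0.11.

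Markers of other cells and library differences move with the comparison. The 7 germ cell markers found in the table summed to 604 to 1038 TPM in somatic differentiated PGCs, against 2713 to 2835 TPM in undifferentiated PGCs, and all 7 were called lower. The TDRD5 call was lost with a pseudocount of 5 (-0.81), with median of ratios scaling (-0.91) and without somatic differentiated library 3 or undifferentiated library 1 or 3 (-0.85, -0.94 and -0.92), and the PIWIL1 call without somatic differentiated library 3 (-0.91). The 9 fibroblast and mural markers summed to 1308 to 2763 TPM in somatic differentiated PGCs and 232 to 289 TPM in undifferentiated PGCs, with 6 of the 8 tested called higher. RGS5, a pericyte marker, stayed at or below 0.23 TPM in every library. Undifferentiated library 2 was the lowest of its group for 8 of the 10 genes, against 63.4% of all genes tested. Undifferentiated library 1 was the highest of that group for 8 of the 10, against 49.2% of all genes tested. Somatic differentiated library 3 was the highest of its group for 6 of the 10, against 25.2% of all genes tested. For the genes named here, results are also given without a library where that changes a call.

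Across the 10 genes, FLT1, LMO2 and VEGFA were called higher in somatic differentiated PGCs and KDR was called lower. VEGFC, FLT4 and VEGFD were tested and not called. TEK, TAL1 and FLI1 were below the mean of 1 TPM and got no test, so 7 of the 10 entered the fit. Of these 7, 42.9% were called higher and 14.3% lower, against 13.2% and 7.77% of all genes tested. The median change of these 7, which is the value of VEGFA, was 1.38, against -0.11 over all genes tested. It counts VEGFD and leaves out TAL1, TEK and FLI1 (log2 differences -0.79, -0.33 and 0.36), so it does not describe all 10. The values of the 3 in each group did not overlap for FLT1, LMO2, VEGFA and VEGFD, which were higher in somatic differentiated PGCs, and for KDR, which was lower. VEGFD averaged 0.434 TPM in undifferentiated PGCs and passed the filter only through its somatic differentiated values, so its place among the genes tested is not independent of its direction. Over all genes tested, 25.0% lay higher without overlap and 30.6% lower, 55.6% together.

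**Figure D1:**
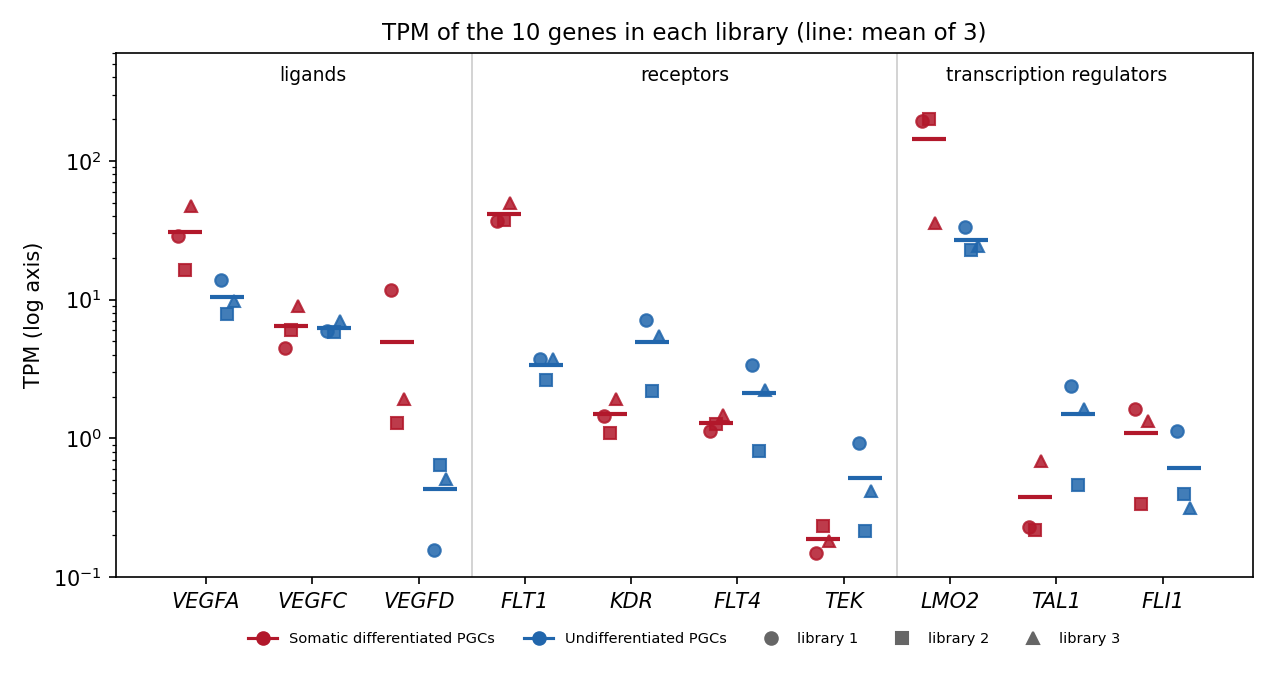
TPM of each gene in each library on a log axis, with somatic differentiated PGCs in red to the left and undifferentiated PGCs in blue. Marker shapes give the library number and lines the mean of 3 libraries. FLT1 averaged 41.4 TPM in somatic differentiated PGCs and 3.35 TPM in undifferentiated PGCs, while KDR averaged 1.49 TPM and 4.91 TPM in the same order.

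The VEGF ligands did not move together. VEGFA, the main growth factor for blood vessels (chromosome 3, 30775054 to 30796571), had 28.7, 16.5 and 47.5 TPM across somatic differentiated libraries 1 to 3, against 13.9, 7.85 and 9.80 TPM in undifferentiated libraries 1 to 3. The groups do not overlap, but the lowest somatic differentiated library lies close to the highest undifferentiated one. VEGFA rose by a log2 change of 1.38 (SE 0.39, limma adjusted p 0.0289). The call was lost without somatic differentiated library 1 or 3 (1.37 and 1.02) and without undifferentiated library 2 or 3 (1.21 and 1.35), where the adjusted p was 0.0665 to 0.0822.

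VEGFC, the ligand that drives lymphatic growth (chromosome 4, 44468359 to 44536888), had 4.50, 6.06 and 8.92 TPM in somatic differentiated libraries, against 5.91, 5.87 and 7.01 TPM in undifferentiated libraries. The somatic differentiated values surround the undifferentiated ones. The log2 change was 0.01 with a 95% interval of -0.62 to 0.63 (limma adjusted p 0.989), so a change of up to about 0.6 in either direction on this scale was not resolved.

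VEGFD, the closest relative of VEGFC (chromosome 1, 123415471 to 123448479), had 11.7, 1.29 and 1.92 TPM in somatic differentiated libraries, against 0.157, 0.639 and 0.505 TPM in undifferentiated libraries. Somatic differentiated library 1 stood far above the rest. Without that library the mean of VEGFD fell below 1 TPM and it was not tested. The log2 change was 1.63 (SE 0.63) and was not called (limma adjusted p 0.0759). It was called without somatic differentiated library 2 (2.10, adjusted p 0.0472), with a pseudocount of 0.1 (2.73, adjusted p 0.0434) and with array weights (2.27, adjusted p 0.0166).

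The library with the high VEGFD also held the highest values of some markers of other cells, named here after their values were seen. Among fibroblast and mural markers, ACTA2 had 150, 8.55 and 18.2 TPM in somatic differentiated libraries, and DCN 315, 194 and 33.4 TPM. LUM and PDGFRA were also highest in that library. COL1A1, COL1A2, TAGLN and RGS5 were highest in somatic differentiated library 3, and PDGFRB in library 2. ACTA2 was not called with all libraries. It was called higher without somatic differentiated library 1, without somatic differentiated library 2, with array weights and with the replicate block. HBE, an embryonic globin, had 18.0, 1.44 and 2.97 TPM in somatic differentiated libraries, against 0.630, 0.213 and 1.04 TPM in undifferentiated libraries. LAPTM5, a leukocyte marker, had 17.7, 1.49 and 2.76 TPM in somatic differentiated libraries, against 0.875, 0.441 and 0.766 TPM in undifferentiated libraries. HBE and LAPTM5 were not called, but each was called higher without somatic differentiated library 2 and with array weights. Both averaged under 1 TPM in undifferentiated PGCs and passed the filter only through their somatic differentiated values. CD74 was also highest in that library, with 11.3, 3.40 and 4.003 TPM in somatic differentiated libraries, against 4.22, 5.36 and 2.72 TPM in undifferentiated libraries. CSF1R, the macrophage receptor, had 1.10, 2.01 and 1.51 TPM in somatic differentiated libraries, against 0.0875, 0.137 and 0.0870 TPM in undifferentiated libraries. The CSF1R groups do not overlap, and with low genes kept in the fit it was called higher (log2 change 1.19). Some other markers on these lists were low: SPI1 did not exceed 0.0659 TPM in any library, HBA1 and HBE1 were listed at 0 throughout, and PTPRC stayed between 0.82 and 1.96 TPM. SPI1 and HBBR were listed at 0 in undifferentiated libraries, and HBBR had 0.676, 0.185 and 0.427 TPM in somatic differentiated libraries. Neither was called with low genes kept in the fit. HBBA had 1.71, 1.73 and 1.77 TPM in somatic differentiated libraries and was listed at 0 in undifferentiated libraries. HBBA was below the mean of 1 TPM, but was called higher in all 4 fits that tested it (log2 change 1.45). Those fits kept low genes or left out an undifferentiated library, so its being tested was not independent of its direction. The 8 leukocyte markers summed to 16.3 to 41.7 TPM in somatic differentiated PGCs and 12.9 to 15.3 TPM in undifferentiated PGCs, with 0 of the 6 tested called. The 11 erythroid markers, most of whose sum is the transferrin receptor TFRC, summed to 88.0 to 117 TPM and 89.9 to 220 TPM in the same order of groups, with 0 of the 2 tested called. TFRC was called lower without undifferentiated library 2 and with array weights. The part of such other cells in the VEGFD value was not tested.

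As a share of the summed TPM of these 3 ligands, VEGFC made up 16.9% ± 7.84 in somatic differentiated PGCs and 37.0% ± 6.41 in undifferentiated PGCs (SD, n = 3 each), without overlap. VEGFA made up 71.5% ± 9.01 and 60.3% ± 8.14 in the same order, with overlap. Such shares also move with the other genes in the sum, and VEGFC itself had no called change.

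Among the receptors, FLT1 rose and KDR fell. FLT1 (chromosome 1, 177165538 to 177266964) had 37.0, 37.5 and 49.6 TPM in somatic differentiated libraries, against 3.73, 2.62 and 3.71 TPM in undifferentiated libraries. Every somatic differentiated library was far above every undifferentiated one. The spread in each group was near the median over all genes tested. The SD of FLT1 on the log2 scale was 0.23 in somatic differentiated and 0.22 in undifferentiated PGCs, against medians of 0.21 and 0.25. The mean was 12.3 times higher, and the log2 change was 3.28 (SE 0.21, limma adjusted p 0.000302). It ranked 83 from the top of the 12996 genes. FLT1 was called under all 15 alternatives, with log2 changes of 2.46 to 3.59.

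KDR (chromosome 4, 65185439 to 65213106) had 1.45, 1.09 and 1.92 TPM in somatic differentiated libraries, against 7.10, 2.19 and 5.45 TPM in undifferentiated libraries. Undifferentiated library 2 lies just above the somatic differentiated values. KDR fell by a log2 change of -1.16 (SE 0.38, limma adjusted p 0.0454). The call was lost without somatic differentiated library 1, 2 or 3 (-1.16, -1.04 and -1.28), without undifferentiated library 1 or 3 (-0.88 and -1.05), with low genes kept in the fit (adjusted p 0.0701) and with a pseudocount of 5 (-0.58, adjusted p 0.0533). Without undifferentiated library 2 it was -1.55 with an adjusted p of 0.00592.

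FLT4 (chromosome 13, 14053033 to 14099309) had 1.12, 1.27 and 1.46 TPM in somatic differentiated libraries, against 3.38, 0.807 and 2.23 TPM in undifferentiated libraries. Undifferentiated libraries 1 and 3 are above all somatic differentiated ones, and library 2 is below them. The log2 change was -0.37 with a 95% interval of -1.19 to 0.45 and was not called (limma adjusted p 0.426). Without undifferentiated library 2 it was -0.72 (adjusted p 0.0539), and with array weights, which give that library the least weight, -0.68 (adjusted p 0.0395), below the minimum change in both.

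TEK (chromosome Z, 68766291 to 68802701) had 0.148, 0.235 and 0.180 TPM in somatic differentiated libraries, against 0.927, 0.213 and 0.418 TPM in undifferentiated libraries. No library reached 1 TPM, and the groups overlap through undifferentiated library 2. With low genes kept in the fit, the log2 change was -0.33 (limma adjusted p 0.194). TIE1, its relative and partner on endothelial cells, averaged 0.0387 ± 0.0193 TPM in somatic differentiated PGCs and 0.145 ± 0.0618 TPM in undifferentiated PGCs (SD, n = 3 each), and was not tested either.

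The mix of VEGF receptor transcripts therefore differed between the groups. FLT1 made up 93.5%, 94.1% and 93.6% of the summed TPM of FLT1, KDR and FLT4 in somatic differentiated libraries, against 26.2%, 46.6% and 32.6% in undifferentiated libraries. KDR made up 3.67%, 2.74% and 3.62% in somatic differentiated libraries, against 50.0%, 39.0% and 47.9% in undifferentiated libraries. The KDR share also falls because FLT1 rises within the sum. KDR itself averaged 1.49 TPM in somatic differentiated PGCs and 4.91 TPM in undifferentiated PGCs. There were 25.5, 34.4 and 25.8 TPM of FLT1 per TPM of KDR in somatic differentiated libraries, against 0.525, 1.19 and 0.681 in undifferentiated libraries. This ratio is taken within a library and does not change when a library is scaled by 1 factor. Quantile normalization is not such a scaling and can change it. The 3 receptors together summed to 44.1 ± 7.68 TPM in somatic differentiated PGCs and 10.4 ± 4.38 TPM in undifferentiated PGCs (SD, n = 3 each).

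**Figure D2:**
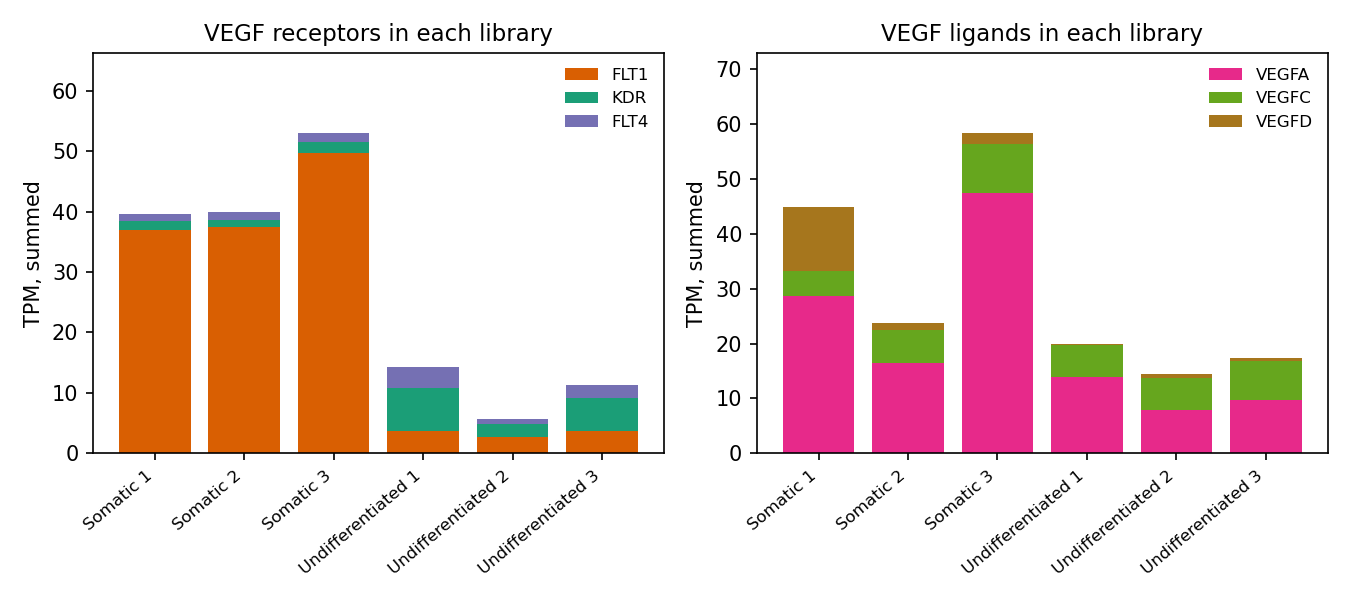
Stacked TPM of the VEGF receptors FLT1, KDR and FLT4 (left) and of the ligands VEGFA, VEGFC and VEGFD (right) in each library, somatic differentiated libraries first. FLT1 fills 93.5% to 94.1% of the receptor bar in somatic differentiated libraries and 26.2% to 46.6% in undifferentiated libraries.

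Of the transcription regulators, LMO2 had the highest mean of the 10 genes in both groups, though in somatic differentiated library 3 it lay below FLT1 and VEGFA, and TAL1 and FLI1 were near the lower limit. LMO2, a LIM domain protein that bridges DNA-binding partners such as TAL1 (chromosome 5, 18658103 to 18665579), had 193, 200.0 and 35.8 TPM in somatic differentiated libraries, against 33.5, 22.7 and 24.3 TPM in undifferentiated libraries. Somatic differentiated libraries 1 and 2 were far above the rest, and library 3 was barely above undifferentiated library 1. LMO2 rose by a log2 change of 2.04 (SE 0.63, limma adjusted p 0.0400). Its SD on the log2 scale was 1.40 in somatic differentiated PGCs and 0.29 in undifferentiated PGCs.

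The LMO2 call rested on few libraries. It was lost without somatic differentiated library 1 or 2 (1.65 and 1.62, adjusted p 0.114 and 0.112), without undifferentiated library 1, 2 or 3 (2.20, 1.93 and 1.98, adjusted p 0.0670 to 0.102) and with low genes kept in the fit (adjusted p 0.0636). Without somatic differentiated library 3 the change was 2.85 with an adjusted p of 0.00155.

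TAL1, the basic helix-loop-helix factor that starts blood formation (chromosome 8, 22260965 to 22269319), had 0.231, 0.218 and 0.689 TPM in somatic differentiated libraries, against 2.40, 0.457 and 1.64 TPM in undifferentiated libraries. Undifferentiated library 2 lies among the somatic differentiated values. TAL1 was not tested with all libraries; with low genes kept in the fit its change was -0.79 (limma adjusted p 0.121). Without undifferentiated library 2 its mean passed 1 TPM and it was called lower, at -1.13 (adjusted p 0.0226). It was also tested without somatic differentiated library 1 or 2 and not called in either (-0.71 in both, adjusted p 0.239 and 0.244). In each fit with a library left out, TAL1 passed the filter only through its undifferentiated values. Its being tested there was thus not independent of its direction.

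FLI1, an ETS factor of endothelium and megakaryocytes (chromosome 24, 1016857 to 1089783), had 1.63, 0.335 and 1.33 TPM in somatic differentiated libraries, against 1.12, 0.396 and 0.313 TPM in undifferentiated libraries. The groups overlap, and with low genes kept in the fit the log2 change was 0.36 (limma adjusted p 0.436). The 8 thrombocyte markers summed to 37.1 to 162 TPM in somatic differentiated PGCs and 15.3 to 21.6 TPM in undifferentiated PGCs. Most of the somatic differentiated sum was THBS1, with 44.9, 31.2 and 137 TPM, against 9.53, 6.68 and 12.8 TPM in undifferentiated libraries. Of the 6 tested, THBS1 and F13A1 were called higher and ITGA2B, the lineage's defining integrin, was called lower. These are 33.3% and 16.7%, against 13.2% and 7.77% of all genes tested. F13A1 averaged 0.174 TPM in undifferentiated PGCs and passed the filter only through its somatic differentiated values. Its being tested was thus not independent of its direction. The F13A1 call was lost with a pseudocount of 5 (0.38), with quantile normalization (0.9986) and without undifferentiated library 1, 2 or 3 (1.22, 1.14 and 1.15), and the ITGA2B call with a pseudocount of 5 (-0.48) and without undifferentiated library 1 (-0.95).

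In order of mean level, somatic differentiated PGCs had LMO2 (143 ± 92.9 TPM), FLT1 (41.4 ± 7.15), VEGFA (30.9 ± 15.6), VEGFC (6.49 ± 2.25), VEGFD (4.99 ± 5.86), KDR (1.49 ± 0.416), FLT4 (1.29 ± 0.170), FLI1 (1.10 ± 0.678), TAL1 (0.379 ± 0.268) and TEK (0.188 ± 0.0437; SD, n = 3). Of the neighbours in this order, only VEGFA and VEGFC did not overlap between libraries. In undifferentiated PGCs the order was LMO2 (26.9 ± 5.84 TPM), VEGFA (10.5 ± 3.09), VEGFC (6.27 ± 0.647), KDR (4.91 ± 2.50), FLT1 (3.35 ± 0.635), FLT4 (2.14 ± 1.29), TAL1 (1.50 ± 0.978), FLI1 (0.610 ± 0.444), TEK (0.519 ± 0.368) and VEGFD (0.434 ± 0.249; SD, n = 3). There LMO2 and VEGFA, and VEGFA and VEGFC, did not overlap, and all other neighbours did.

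**Figure D3:**
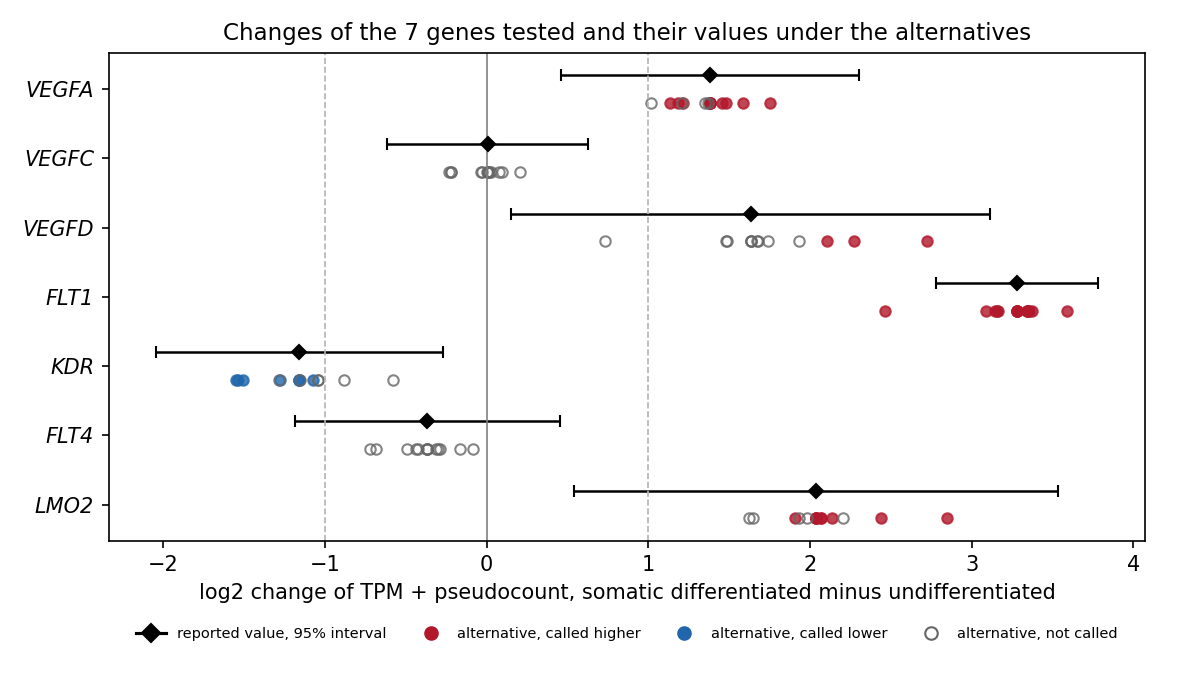
Log2 change (somatic differentiated minus undifferentiated) of the 7 genes tested, with the reported value and its 95% interval as diamonds and each alternative as a circle, filled where the gene was called. FLT1 is filled at every alternative, while KDR, LMO2, VEGFA and VEGFD include open and filled circles, and VEGFC and FLT4 only open ones.

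The location of the genes was read from the deposited coordinates, on build GRCg6a per the submitters' processing notes. The 10 genes lie on 8 chromosomes. Neighbours were the nearest protein-coding genes with a unique symbol on each side, so other genes may lie between. KDR is followed, 56664 bases on, by KIT, the stem cell factor receptor of germ cells, on the opposite strand. KIT averaged 25.6 TPM in somatic differentiated PGCs and 59.96 TPM in undifferentiated PGCs and was called lower as well (log2 change -1.35), though not with any 1 of undifferentiated libraries 1 to 3 or somatic differentiated libraries 2 and 3 left out (-0.88 to -1.47) or with low genes kept in the fit (adjusted p 0.0609). MTHFD2L, the neighbour after VEGFC, was called lower too (14.7 TPM in somatic differentiated PGCs and 34.2 TPM in undifferentiated PGCs, log2 change -1.18). It was not called without somatic differentiated library 3 (-0.9996), and VEGFC itself was not called. KIT and MTHFD2L are named because they were called. The remaining neighbours of the 10 genes were either not called or not tested. FLI1 lies 42604 bases from ETS1, another ETS factor, which averaged 20.3 TPM in somatic differentiated PGCs and 9.34 TPM in undifferentiated PGCs (log2 change 1.10, limma adjusted p 0.0514, not called). ETS1 was called higher with a minimum mean of 5 TPM (1.10, adjusted p 0.0492), median of ratios scaling (adjusted p 0.0201), the replicate block (1.10, adjusted p 0.0188) and without somatic differentiated library 2 (1.33, adjusted p 0.0475). A microRNA annotated on the opposite strand within FLT1 and a 5S rRNA on the opposite strand within FLI1 were listed at 0 in every library.

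Ligands, co-receptors and processing factors of the VEGF and angiopoietin systems were read from a list of 11 genes, of which 10 were in the table and 8 were tested. Of these 8, 5 (62.5%) were called higher and 0 lower, against 13.2% and 7.77% of all genes tested. Their median change was 1.86. This list and those below were chosen with earlier results of these data known. CCBE1, which promotes the maturation of VEGFC, had 38.3, 63.6 and 53.4 TPM in somatic differentiated libraries, against 3.31, 2.12 and 3.20 TPM in undifferentiated libraries (log2 change 3.75, SE 0.25, limma adjusted p 0.000340). ADAMTS3, the protease that cleaves VEGFC and works with CCBE1, averaged 23.8 ± 16.3 TPM in somatic differentiated PGCs and 4.28 ± 1.35 TPM in undifferentiated PGCs (SD, n = 3 each), a log2 change of 2.08 (adjusted p 0.0111); it was singled out after its values were seen. VEGFC itself showed no called change beside called increases of both of these genes.

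ANGPT1 and ANGPT2 were called higher while their receptor TEK stayed under 1 TPM. ANGPT1 averaged 0.923 TPM in undifferentiated PGCs and passed the filter only through its somatic differentiated values. Its being tested was thus not independent of its direction. ANGPT4, another TEK ligand, averaged 0.161 TPM in somatic differentiated PGCs and 0.514 TPM in undifferentiated PGCs, without overlap, and was not tested. ANGPT2, a context-dependent antagonist of TEK, had 541, 112 and 87.2 TPM in somatic differentiated libraries, against 28.1, 17.9 and 16.1 TPM in undifferentiated libraries (log2 change 3.06, SE 0.65, limma adjusted p 0.0108). ANGPT1, the TEK agonist, had 10.1, 8.57 and 6.22 TPM in somatic differentiated libraries, against 1.61, 0.533 and 0.627 TPM in undifferentiated libraries (2.29, adjusted p 0.00212; 1.16 with a pseudocount of 5). ANGPT2 thus held much more transcript than ANGPT1 in every library, by 27.0 ± 23.3 TPM per TPM in somatic differentiated PGCs and 25.6 ± 8.10 in undifferentiated PGCs (SD, n = 3 each), values that overlap.

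The co-receptors and placental growth factor gave mixed values. NRP2, the co-receptor of FLT4, had 57.0, 87.3 and 128 TPM in somatic differentiated libraries, against 34.7, 16.2 and 34.9 TPM in undifferentiated libraries, and rose by a log2 change of 1.63 (limma adjusted p 0.0151; 1.07 with array weights). NRP1, the co-receptor of KDR, had 28.3, 15.5 and 11.5 TPM in somatic differentiated libraries, against 37.5, 13.8 and 46.4 TPM in undifferentiated libraries, and was not called (-0.72, adjusted p 0.283). Without undifferentiated library 2, NRP1 was called lower, at -1.23 (adjusted p 0.0383). PGF, a ligand of FLT1 and not of KDR, had 33.5, 9.61 and 61.4 TPM in somatic differentiated libraries, against 11.2, 7.18 and 7.34 TPM in undifferentiated libraries, and was not called (1.59, adjusted p 0.0734). Without somatic differentiated library 2 it was called higher at 2.30 (adjusted p 0.00648), and with array weights at 1.49 (adjusted p 0.0306).

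**Figure D4:**
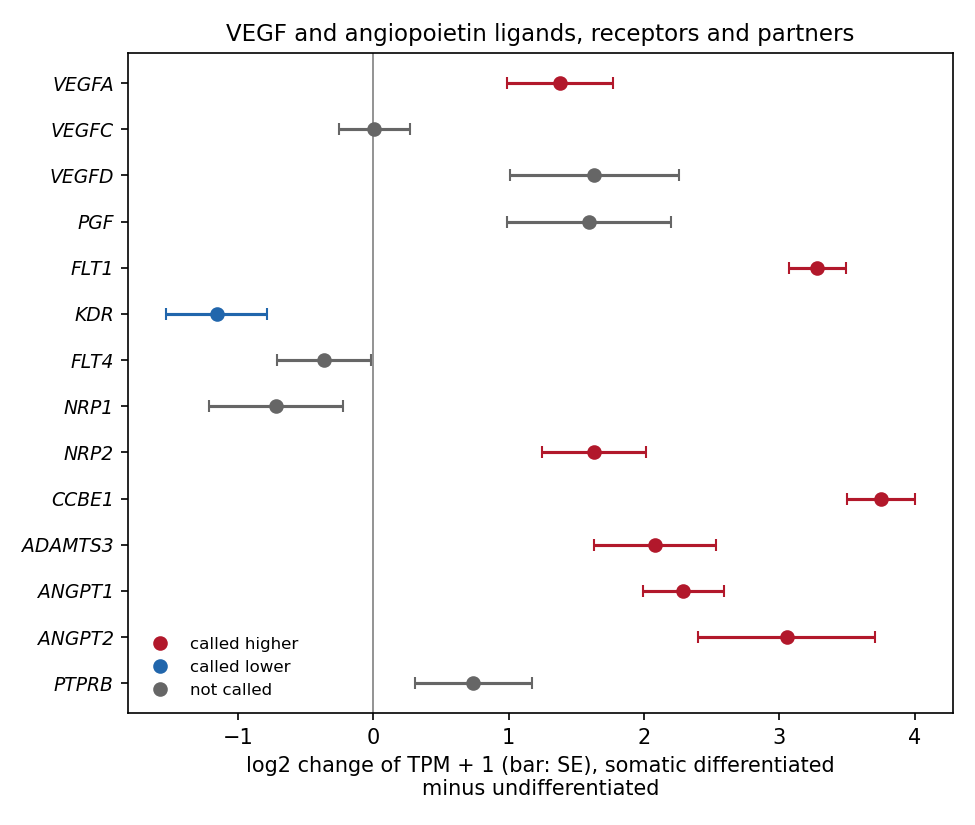
Log2 change (somatic differentiated minus undifferentiated, bars are SE) of the tested VEGF and angiopoietin ligands, receptors and partners. CCBE1 (3.75), FLT1 (3.28) and ANGPT2 (3.06) are farthest to the right, and KDR (-1.16) is the only gene called lower.

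Whether the somatic differentiated libraries held endothelial markers in general was examined with a list of 24 genes, of which 17 were in the table, 10 were tested, 4 were called higher and 2 lower. Their median change was 0.50, against -0.11 over all genes tested, of which 13.2% were called higher and 7.77% lower. CDH5 (VE-cadherin, the adherens junction protein of endothelium) had 12.5, 91.0 and 31.9 TPM in somatic differentiated libraries, against 3.99, 2.85 and 3.92 TPM in undifferentiated libraries (log2 change 2.92, limma adjusted p 0.0112). ACVRL1, an endothelial receptor of the BMP family, averaged 5.68 ± 3.06 TPM in somatic differentiated PGCs and 0.411 ± 0.255 TPM in undifferentiated PGCs. Its change was 2.17 (limma adjusted p 0.00420), and 0.94 and not called with a pseudocount of 5. ACVRL1 passed the filter only through its somatic differentiated values, so its being tested was not independent of its direction.

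ENG and EGFL7 were also called higher (log2 changes 1.19 and 1.35, limma adjusted p 0.0105 and 0.0338). The ENG call was lost with a pseudocount of 5 (0.55), and the EGFL7 call with low genes kept in the fit and without any 1 of the libraries other than somatic differentiated library 2.

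RASIP1 and APLNR were called lower. RASIP1, a regulator of vessel lumen formation, had 33.4, 44.6 and 34.3 TPM in somatic differentiated libraries, against 91.4, 92.4 and 87.0 TPM in undifferentiated libraries (log2 change -1.26, limma adjusted p 0.00166). APLNR, the apelin receptor, averaged 1.07 ± 0.436 TPM in somatic differentiated PGCs and 3.41 ± 0.901 TPM in undifferentiated PGCs (-1.10, adjusted p 0.0196). Its call was lost without somatic differentiated library 2 (-0.91), without undifferentiated library 1 or 3 (adjusted p 0.0650 and 0.0782) and with a pseudocount of 5 (-0.47). PECAM1, the platelet and endothelial adhesion molecule, averaged 6.50 ± 3.97 TPM and 5.90 ± 0.841 TPM in the same order (-0.02, adjusted p 0.975).

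Of the markers near 0, picked out by their values, VWF did not exceed 0.115 TPM in any library, CD34 did not exceed 0.610 TPM, and NOS3 was listed at 0 in all somatic differentiated libraries. LYVE1 was higher without overlap (0.692, 0.537 and 0.377 TPM in somatic differentiated libraries, against 0.105, 0 and 0.0522 TPM). STAB1 was lower without overlap (0.544, 0.386 and 0.427 TPM, against 1.14, 0.594 and 0.975 TPM). With low genes kept in the fit, neither of these 2 was called (0.54 and -0.38). The 17 markers summed to 124 to 207 TPM in somatic differentiated PGCs and 134 to 158 TPM in undifferentiated PGCs, ranges that overlap. RASIP1 made up most of the sum in undifferentiated PGCs. The other 16, a sum taken after the values were seen, came to 122, 162 and 90.0 TPM in somatic differentiated libraries, against 66.2, 41.8 and 60.5 TPM in undifferentiated libraries, without overlap. This drops RASIP1, called lower, and keeps CDH5, called higher, at 12.5, 91.0 and 31.9 TPM against 3.99, 2.85 and 3.92 TPM. Whether the sums overlap thus depends on which gene is dropped. The part of any endothelial cells in the FLT1 and LMO2 values was not tested.

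**Figure D5:**
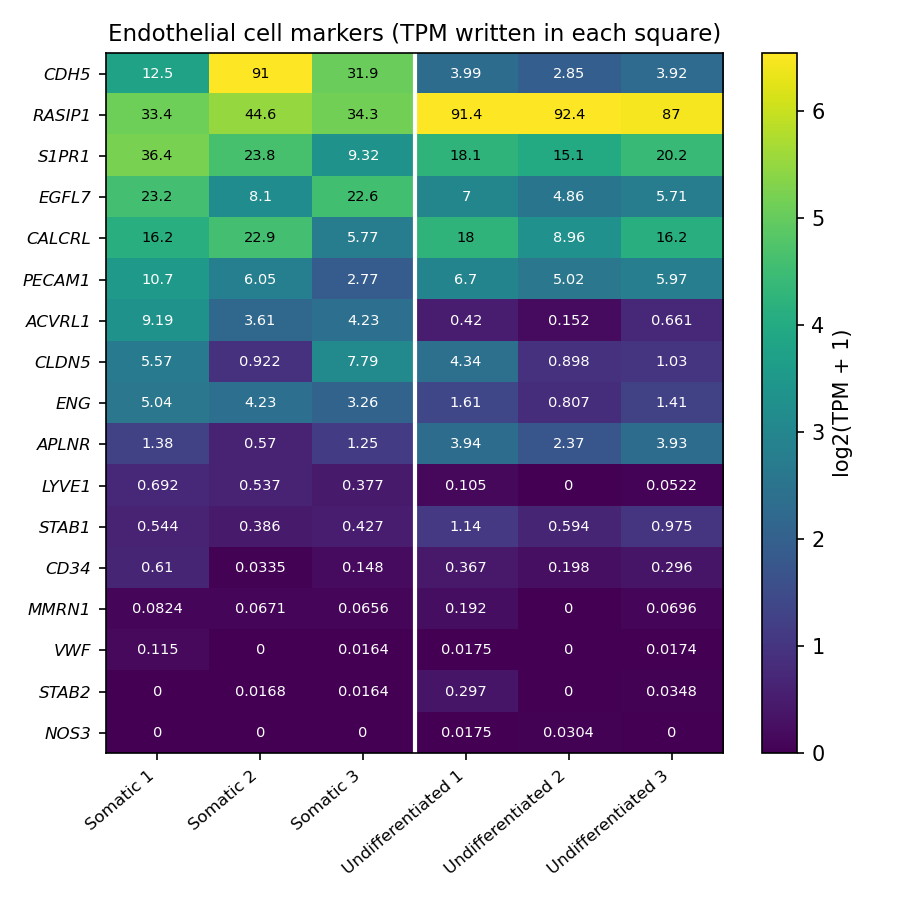
Endothelial cell markers in each library, coloured by log2(TPM + 1) with the TPM written in each square, somatic differentiated libraries to the left of the white line. CDH5 is at 12.5 to 91.0 TPM in somatic differentiated libraries and 2.85 to 3.99 TPM in undifferentiated libraries, while VWF, CD34, MMRN1, STAB2, LYVE1 and NOS3 are below 1 TPM in every library.

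Of 18 transcription factors of endothelium listed, 15 were tested, 5 were called higher and 0 lower, with a median change of 0.71. The 5 are 33.3% of those tested, against 13.2% called higher and 7.77% called lower over all genes tested. Among them, MEF2C and FOXC1 averaged 0.962 and 0.905 TPM in undifferentiated PGCs and passed the filter only through their somatic differentiated values. That these 2 were tested was thus not independent of their direction. MEF2C was not called when the pseudocount was 5. NR2F2, the factor of venous identity, had 106, 65.5 and 125 TPM in somatic differentiated libraries, against 14.0, 7.73 and 8.30 TPM in undifferentiated libraries (log2 change 3.18, limma adjusted p 0.000920). ERG, the closest relative of FLI1, had 24.9, 7.70 and 19.8 TPM in somatic differentiated libraries, against 1.57, 1.34 and 2.52 TPM in undifferentiated libraries (2.60, adjusted p 0.00441; 1.64 with a pseudocount of 5). ERG was thus called where FLI1 stayed near 1 TPM.

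Partners of LMO2 and TAL1 and other blood regulators made up a list of 15, of which 11 were tested, 1 was called higher and 0 lower. The median change was 0.20. The share called higher, 9.09%, is near the 13.2% of all genes tested, of which 7.77% were called lower. The called gene was RUNX1, needed for blood cells to emerge from endothelium, with 41.2, 22.1 and 16.5 TPM in somatic differentiated libraries, against 1.38, 1.83 and 1.55 TPM in undifferentiated libraries (log2 change 3.32, limma adjusted p 0.00103; 2.19 with a pseudocount of 5). GATA2, a zinc finger factor that joins the LMO2 and TAL1 complex, averaged 2.37 ± 1.46 TPM in somatic differentiated PGCs and 1.26 ± 0.733 TPM in undifferentiated PGCs (0.52, adjusted p 0.381). GATA1 was not found under its symbol. LDB1, the protein that LMO2 binds, averaged 77.0 ± 7.11 TPM and 111 ± 25.4 TPM in the same order and was not called (-0.50, adjusted p 0.0785). There were 2.70, 2.68 and 0.421 TPM of LMO2 per TPM of LDB1 in somatic differentiated libraries, against 0.262, 0.277 and 0.197 in undifferentiated libraries.

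Hypoxia regulators were read because VEGFA is a textbook target of hypoxia-inducible factors. Of 10 listed, 7 were tested, 4 were called higher and 0 lower, with a median change of 1.45. The 4 are 57.1% of those tested, against 13.2% called higher and 7.77% called lower over all genes tested. EPAS1 (HIF-2 alpha) had 136, 85.8 and 27.6 TPM in somatic differentiated libraries, against 13.1, 8.58 and 10.1 TPM in undifferentiated libraries (log2 change 2.61, limma adjusted p 0.00940). EGLN3, a hydroxylase that marks these factors for decay, had 123, 196 and 179 TPM in somatic differentiated libraries, against 32.5, 21.0 and 40.1 TPM in undifferentiated libraries (2.39, adjusted p 0.00151). HIF1A had 178, 207 and 275 TPM in somatic differentiated libraries, against 105, 44.7 and 103 TPM in undifferentiated libraries (1.45, adjusted p 0.0161), and was not called without somatic differentiated library 3 (1.28, adjusted p 0.0566) or with array weights (0.98).

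Downstream of the VEGF receptors, 21 of 26 listed genes were tested, 5 were called higher and 2 lower, with a median change of 0.30. These are 23.8% and 9.52% of those tested, against 13.2% and 7.77% of all genes tested, so the lower share is near that background. PLCG1, the phospholipase that docks on KDR, had 28.4, 26.0 and 19.9 TPM in somatic differentiated libraries, against 91.8, 53.2 and 70.8 TPM in undifferentiated libraries (log2 change -1.48, limma adjusted p 0.00395). PRKCB, a protein kinase C that acts after PLCG1, averaged 4.76 ± 0.482 TPM in somatic differentiated PGCs and 12.4 ± 4.96 TPM in undifferentiated PGCs (-1.13, adjusted p 0.0309). The PRKCB call was lost with any 1 of the libraries left out other than undifferentiated library 2 (-0.94 to -1.20, adjusted p 0.0629 to 0.110), with low genes kept in the fit (adjusted p 0.0561) and with a pseudocount of 5 (-0.79).

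The largest called increases in that list were in HSPB1 and CAV1. HSPB1, a small heat shock protein phosphorylated after VEGF stimulation, had 216, 32.1 and 330 TPM in somatic differentiated libraries, against 22.3, 9.07 and 12.7 TPM in undifferentiated libraries (log2 change 3.18, limma adjusted p 0.0214). The call was lost without somatic differentiated library 1 or 3 (2.83 and 2.52) or undifferentiated library 2 or 3 (2.90 and 3.12). CAV1, the caveolar coat protein, had 146, 95.9 and 42.5 TPM in somatic differentiated libraries, against 16.5, 19.5 and 11.5 TPM in undifferentiated libraries (2.37, adjusted p 0.00641).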

How the data were processed

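The authors deposited 1 table of TPM values per gene for 6 polyA RNA libraries; its name says that RSEM made them. The submitters' processing notes name STAR 2.7.3a, RSEM 1.3.1, Trimmomatic 0.39, Trim Galore 0.6.6, cutadapt 3.1, FastQC 0.11.9 and build GRCg6a, without roles. The annotation release is not given in the sources used here. Each column summed to 1000000 TPM, so abundant genes move all others and depth is unknown. All 6 value columns matched sample descriptions.

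The table was analysed with limma 3.58.1 in R 4.3.3 (trend, no covariates) and summarised with Python 3.11.15, pandas 2.3.3, numpy 2.4.6 and matplotlib 3.10.9. The code was tested on simulated data. The pseudocount was 1, so fold changes of low genes are understated. Genes and lists were chosen with earlier results of these data known. All 10 genes were named. The rule took from each pathway list at most 2 called genes per direction, those with the greatest change, plus 13 genes whatever their result. Some further genes, such as ENG, EGFL7, ADAMTS3, ANGPT4, LDB1, VWF, CD34 and NOS3, were named outside this rule. Genes sharing a symbol were not used. Symbols not in the table, looked up as RefSeq synonyms, gave no further gene. Alternatives changed the pseudocount, filter, scaling, trend, weights, minimum change and replicate block and left out each library. No batch is given in the labels.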

Additional observations from a re-analysis of the deposited data

How the results depend on the processing

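Of the 10 genes, 3 were called higher and 1 lower. Leaving out each library in turn gave 1 to 3 called higher and 0 to 2 called lower, and such fits also have fewer samples. KDR was the gene called lower, and 0 were with a pseudocount of 5, with no filter on low values (18821 genes tested) and with a minimum mean of 5 TPM, which removes KDR; over all genes, 1721 were called higher and 1010 lower, and a pseudocount of 5 gave 529 lower calls. FLT1 was called under each of its 15 alternatives, VEGFA under 11 of 15, LMO2 under 9 of 15, KDR under 7 of 14, and VEGFC and FLT4 under 0 of 15 and 0 of 14. VEGFC, whose change was 0.01, changed sign with a pseudocount of 0.1 (-0.00028), quantile normalization (-0.22) and array weights (-0.23), and ranged from -0.22 to 0.21 with a library left out; the cause was not tested. The array weights stopped before reaching their convergence tolerance. Libraries with the same number share a number but no stated origin: their deviations correlated at 0.192, 0.0131 and 0.140 over 12996 genes, and somatic differentiated library 2 correlated best with undifferentiated library 3 (0.112). With the replicate block, 3 of the 10 genes were called higher and 1 lower, with 1793 and 993 calls over all genes. Without read numbers, levels near 0 (TEK, TAL1, FLI1 and TIE1) carry an unknown counting error.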
